A study of Mus musculus with 14 samples.

Results

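The 44 genes described here copy DNA or carry cells from G1 into S phase. They comprise the MCM2-7 helicase, the factors that license and fire origins, the sliding clamp and its loader, the RPA complex, the replicative polymerases with primase, the lagging-strand enzymes, the enzymes that make deoxynucleotides, and regulators of the G1/S step. They were chosen by name and matched by gene identifier to the exon and intron counts, 44 of 21761 gene identifiers in all. Each was found, at a single place in the annotation.

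RNA came from bone marrow-derived macrophages of FVB/Hsd mice, grown from marrow cells in medium conditioned by L929 fibroblasts and taken on the seventh day of differentiation. All cells had been infected with retroviruses carrying a short hairpin RNA and selected with puromycin. Of 14 samples in the series, 4 had count tables. All 4 are ribosomal RNA-depleted, strand-marked total RNA from cells without treatment: scrambled 1 and scrambled 2, which carried a scrambled hairpin, and sh1137 and sh830, named for the Wdr82 hairpin each carried. The Wdr82 group is therefore 2 different hairpins with 1 library each. Nothing in the labels says whether the scrambled libraries came from separate mice or cultures, so p-values measure only the spread between these libraries, which may be technical. Wdr82 is a WD-repeat protein found in the SET1 histone methyltransferase complexes and in a complex with protein phosphatase 1.

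Replication is prepared in G1, when the origin recognition complex, Cdc6 and Cdt1 load rings of MCM proteins onto DNA, and begins in S phase, when Cdc45 and the GINS proteins join the rings to form the active helicase. Primase with DNA polymerase alpha starts each strand, the RFC complex loads the PCNA clamp, and polymerases epsilon and delta extend the leading and lagging strands on DNA kept open by RPA. Many of these genes are transcribed at the G1/S step under the E2F factors. Marrow precursors proliferate in response to the growth factor CSF1, which L929 medium supplies, and leave the cycle as they mature into macrophages.

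Counts over the exons of genes totalled 34787556 to 43372731 per library. Introns took 40.4% of exon plus intron counts in scrambled 1 and 44.2% with sh1137, against 14.6% in scrambled 2 and 15.2% with sh830, so each group held 1 library of high and 1 of low intron share. The fit used here has a term for that split (the library term) beside the group term. Its p-values rest on how far the hairpin-minus-scrambled differences in the 2 classes disagree, moderated across genes, and not on the spread within a group. Wdr82 itself had 100.3 CPM in scrambled 1, 144 in scrambled 2, 25.1 in sh1137 and 40.7 in sh830, where CPM is counts per 1000000 library counts after TMM scaling, and fell by 1.91 ± 0.094 (SE) on the log2 scale (adjusted p = 0.0022). With the group term alone its log2 fold change was -1.89 (adjusted p = 0.44). The 8 macrophage markers summed to 8598 to 15166 CPM, and 2 of them, Cd68 and Fcgr1, fell. Progenitor markers summed to 82.8 to 132 CPM, lowest in scrambled 2 and highest in scrambled 1. Nearly all of that was Cd34, at 123 CPM in scrambled 1, 77.8 in scrambled 2, 85.2 in sh1137 and 91.3 in sh830. Myb and Meis1 were low and highest in sh1137 (2.94 and 6.51 CPM), so the order of the sum is that of Cd34. Neutrophil precursor markers summed to 12.96, 4.79, 12.2 and 2.44 CPM in scrambled 1, scrambled 2, sh1137 and sh830. Erythroid markers summed to 7.68, 1.66, 9.13 and 1.66 CPM in that order. Both sums were thus higher in the high-intron library of each group, and whether the library term follows cell make-up was not tested. The 6 T cell markers summed to 2.71, 2.83, 6.94 and 5.81 CPM in scrambled 1, scrambled 2, sh1137 and sh830, higher in both hairpin libraries, and 1 of them, Lck, rose by 1.87 on the log2 scale. Markers of B cells, erythroid cells and mast cells summed to at most 9.13 CPM per library with no call, and Pax5, Hbb-b1, Ms4a2, Fcer1a and Prss34 had no count. The 6 stromal markers summed to 9.61, 42.1, 44.2 and 146 CPM in the same order, and 2 of them rose. Pdgfrb rose by 2.13 on the log2 scale, from 8.63 and 9.58 CPM to 42.3 and 37.3 CPM. Col1a1 rose by 2.58 in that fit, though its level in scrambled 2 (9.26 CPM) was above that with sh1137 (0.77 CPM). The part that other cell types had in the results below was not tested.

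Of the replication and G1/S genes, 20 of 44 fell over exons with the Wdr82 hairpins, 0 rose and 24 did not pass the test (edgeR's quasi-likelihood test with the library term, Benjamini-Hochberg adjustment over all features, threshold 0.05). Of all 13884 genes tested, 7.79% fell and 6.06% rose. Falls and rises are given on the log2 scale ± SE of this fit. The members that fell had adjusted p-values from 0.010 to 0.047 and included 4 of 6 MCM2-7 subunits, 4 of 7 polymerase and primase genes, both lagging-strand enzymes and 3 of 4 genes of deoxynucleotide synthesis. The log2 fold change was below 0 for 43 of 44 members, with a median of -0.36 against -0.014 over all genes tested. E2f2 was the exception, at 0.013. Summed over the 44 genes, levels were 4665 CPM in scrambled 1, 5659 in scrambled 2, 3494 in sh1137 and 4339 in sh830. The group means were 5162 ± 703 CPM for scrambled and 3917 ± 598 CPM for the Wdr82 hairpins (SD, n = 2 each).

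These calls rest on the library term. On simulated data the fit with that term made more false calls than the threshold allows. With the group term alone, edgeR's quasi-likelihood test passed 0 members and 0% of all genes. In that fit 4 members and 646 of all 13884 genes had an unadjusted p under 0.05. The smallest adjusted p among the members was 0.57. DESeq2 with the group term alone also passed 0 members. DESeq2 with the library term passed 19 members, 16 of them among the 20, where 7.45% of genes were lower. In fits that left out 1 library and had no library term, the members had a median log2 fold change of -0.54 without scrambled 1, -0.19 without scrambled 2, -0.27 without sh1137 and -0.52 without sh830. Both hairpin libraries lay below both scrambled libraries for 21 members, where 15.7% of all genes did so, and above both for 0. In bulk RNA, fewer cycling cells and less of each RNA per cycling cell cannot be told apart.

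**Figure D1:**
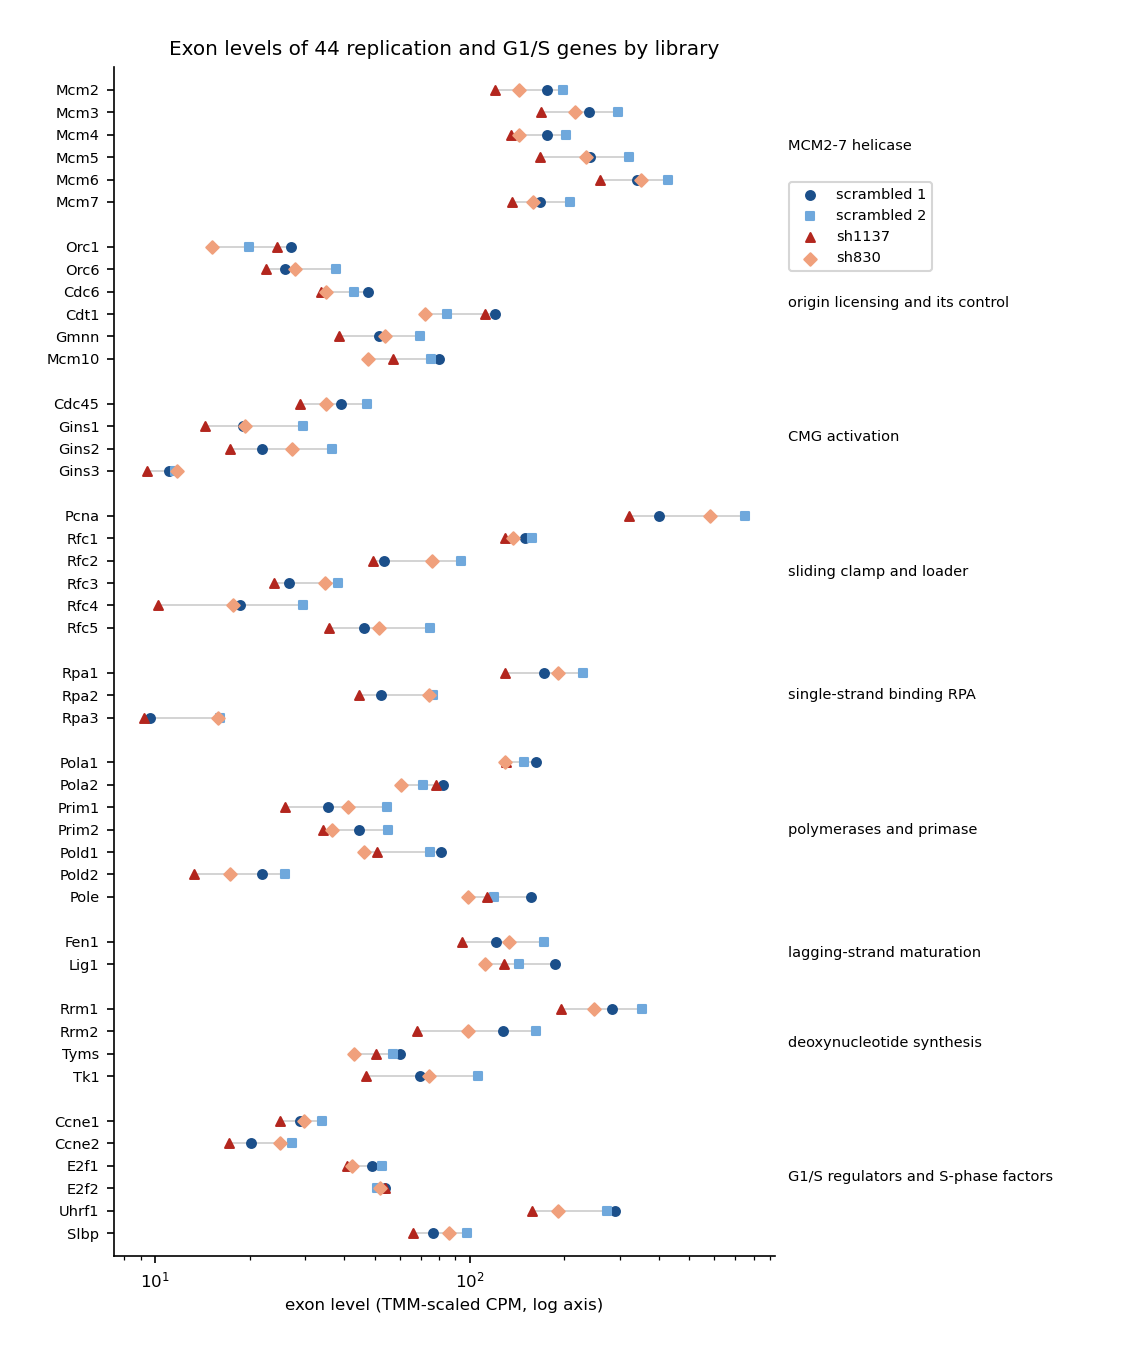
Exon level of each of the 44 genes in the 4 libraries (x axis, TMM-scaled CPM on a log axis; rows are genes grouped by role; blue circles and squares are scrambled 1 and 2, red triangles and orange diamonds are sh1137 and sh830; no error bars, since each mark is 1 library). For 21 genes both hairpin marks lie left of both scrambled marks, and for most of the others sh830 lies between scrambled 1 and scrambled 2.

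Promoter sequence is shown for 5 of the genes because E2F binding words are the sequence feature best known for this class. RefSeq windows from 250 bases before to 50 after the start site (GRCm38.p6, a different build from the mm9 coordinates of the counts) were at hand for 36 of the 44 genes, in 43 windows. The words searched on both strands were TTTCCCGC, TTTGGCGC, TTTCGCGC and TTTGCCGC, and matches on opposite strands can share bases. A word was present for 14 of 36 members (38.9%), against 4.58% of the 10862 tested genes with a window and 2.60% of all 27025 genes in the table. Among the other pathway genes listed below, 15 of 49 with a window held a word (30.6%). Mcm3 has 2 matches (chr1:20820263-20820562, minus strand), Mcm6 has 3, of which 2 share bases (chr1:128359656-128359955, minus strand), and Pold1 has 1 (chr7:44548766-44549065, minus strand). Rrm2, the member with the largest change, has none (chr12:24708004-24708303, plus strand). E2f2, the member with the smallest log2 fold change in size, has 1 in the first of its 2 windows (chr4:136172024-136172323, plus strand). Capitals mark the matches.
Mcm3: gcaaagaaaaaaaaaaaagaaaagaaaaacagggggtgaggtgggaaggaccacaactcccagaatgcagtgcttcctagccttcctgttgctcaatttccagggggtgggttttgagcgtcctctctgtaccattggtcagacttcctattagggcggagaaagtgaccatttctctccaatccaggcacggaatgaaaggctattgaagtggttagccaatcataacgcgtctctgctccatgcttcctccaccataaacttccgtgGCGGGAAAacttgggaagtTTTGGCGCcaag
Mcm6: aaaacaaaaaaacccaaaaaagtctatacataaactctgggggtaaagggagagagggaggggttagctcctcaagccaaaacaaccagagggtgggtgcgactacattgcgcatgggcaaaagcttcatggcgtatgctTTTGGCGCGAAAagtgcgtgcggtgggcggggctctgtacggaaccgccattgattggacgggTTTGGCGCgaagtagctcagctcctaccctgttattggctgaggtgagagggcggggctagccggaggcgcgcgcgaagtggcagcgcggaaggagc
Pold1: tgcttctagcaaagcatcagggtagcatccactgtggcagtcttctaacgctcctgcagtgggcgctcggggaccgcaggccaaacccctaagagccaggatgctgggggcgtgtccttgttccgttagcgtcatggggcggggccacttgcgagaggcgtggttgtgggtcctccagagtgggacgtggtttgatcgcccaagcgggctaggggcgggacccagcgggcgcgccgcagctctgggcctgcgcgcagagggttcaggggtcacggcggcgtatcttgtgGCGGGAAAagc
Rrm2: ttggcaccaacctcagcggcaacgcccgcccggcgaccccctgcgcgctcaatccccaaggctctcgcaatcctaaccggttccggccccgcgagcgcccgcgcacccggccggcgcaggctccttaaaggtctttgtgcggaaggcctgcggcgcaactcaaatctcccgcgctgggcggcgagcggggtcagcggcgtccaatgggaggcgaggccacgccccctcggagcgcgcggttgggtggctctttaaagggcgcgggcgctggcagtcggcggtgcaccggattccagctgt
E2f2: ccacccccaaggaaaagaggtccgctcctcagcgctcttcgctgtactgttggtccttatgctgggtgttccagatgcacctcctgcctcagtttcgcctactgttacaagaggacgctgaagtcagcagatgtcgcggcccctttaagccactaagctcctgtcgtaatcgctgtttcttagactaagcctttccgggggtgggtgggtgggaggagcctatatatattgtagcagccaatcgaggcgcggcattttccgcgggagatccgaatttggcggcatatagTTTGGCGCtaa

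A word was present for 5 of the 16 members with a window that fell over exons and for 9 of the 20 that did not pass. The median log2 fold change was -0.34 for members with a word and -0.35 for those without. The other letters searched, CCAAT on both strands, were present for 24 of 36 members (66.7%) and 42.9% of tested genes. Among the mitosis genes listed below, 1 of 32 with a window held an E2F word and 24 held CCAAT (75%). Of the other pathway genes with a window, 44.9% held CCAAT. A match describes these letters in this window only, and the cells' factors were not measured.

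The MCM2-7 proteins form the ring of the replicative helicase, 1 copy of each in a ring of 6. Their genes had log2 fold changes from -0.50 to -0.34, and 4 of 6 fell. Mcm2 (mm9, chr6:88833468-88848774), whose protein closes the ring against Mcm5, had 176 CPM in scrambled 1, 198 in scrambled 2, 121 in sh1137 and 144 in sh830. It fell by 0.50 ± 0.084 (adjusted p = 0.022), and its groups did not overlap. Mcm5 had 241 CPM in scrambled 1, 322 in scrambled 2, 167 in sh1137 and 235 in sh830, a fall of 0.49 ± 0.086 (adjusted p = 0.024). For Mcm5 the 2 groups were nearly in contact, with sh830 just below scrambled 1. Mcm3 had 239.5 CPM in scrambled 1, 297 in scrambled 2, 169 in sh1137 and 217 in sh830, a fall of 0.48 ± 0.085 (adjusted p = 0.025). Mcm4, part of the subcomplex with helicase activity, had 176 CPM in scrambled 1, 203 in scrambled 2, 136 in sh1137 and 144 in sh830, a fall of 0.44 ± 0.086 (adjusted p = 0.031). The groups of Mcm3 and Mcm4 did not overlap. Mcm6 was the MCM gene with the most counts, at 341 CPM in scrambled 1, 429 in scrambled 2, 259 in sh1137 and 349 in sh830. Here sh830 was above scrambled 1, and the log2 fold change of -0.34 ± 0.091 (adjusted p = 0.058) did not pass. Mcm7 had 167 CPM in scrambled 1, 208 in scrambled 2, 137 in sh1137 and 159.6 in sh830. Its groups did not overlap, and its log2 fold change of -0.34 ± 0.085 (adjusted p = 0.053) did not pass. The introns of Mcm7 hold the microRNA genes Mir106b, Mir25 and Mir93.

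Per kilobase of exon, the 6 subunits were within a narrow range. In the scrambled libraries the mean ran from 52.9 CPM per kb for Mcm4 to 92.98 for Mcm3, a ratio of 1.76, and in the hairpin libraries from 39.00 for Mcm4 to 69.7 for Mcm6, a ratio of 1.79. In each of the 6, the highest library was scrambled 2 and the lowest was sh1137.

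**Figure D2:**
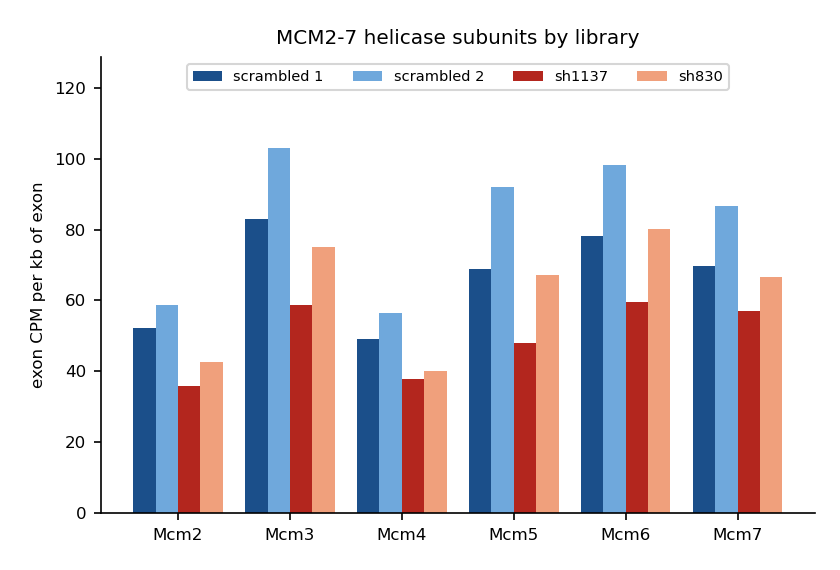
Exon level of the 6 MCM2-7 genes per kilobase of exon (y axis, TMM-scaled CPM per kb, from 0), 1 bar per library. Scrambled 2 is the tallest and sh1137 the shortest bar for every subunit, and for Mcm6 the sh830 bar is above that of scrambled 1.

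Of the 6 genes of origin licensing and its control, 2 fell and the median log2 fold change was -0.36. Mcm10 (chr2:4911770-4933837), which binds the MCM ring as forks start, had 79.7 CPM in scrambled 1, 75.6 in scrambled 2, 57.2 in sh1137 and 47.6 in sh830. It fell by 0.57 ± 0.094 (adjusted p = 0.021), with no overlap. Geminin (Gmnn), the inhibitor that holds Cdt1 after origins have fired, had 51.6 CPM in scrambled 1, 69.4 in scrambled 2, 38.6 in sh1137 and 53.7 in sh830. It fell by 0.39 ± 0.088 (adjusted p = 0.040), although sh830 lay above scrambled 1. Cdt1, the MCM loader that geminin inhibits, had 121 CPM in scrambled 1, 84.6 in scrambled 2, 112 in sh1137 and 72.1 in sh830. The high-intron libraries scrambled 1 and sh1137 were above the other two for Cdt1, its groups overlapped, and its log2 fold change was -0.17 ± 0.086 (adjusted p = 0.23). Cdc6, the other loader, had 47.6 CPM in scrambled 1, 42.8 in scrambled 2, 33.7 in sh1137 and 34.9 in sh830. Its groups did not overlap, and its log2 fold change was -0.40 ± 0.10 (adjusted p = 0.055). Orc1, the ATPase subunit of the origin recognition complex, had 27.1 CPM in scrambled 1, 19.9 in scrambled 2, 24.4 in sh1137 and 15.2 in sh830, with a log2 fold change of -0.27 ± 0.12 (adjusted p = 0.18). Orc6, another subunit, had 25.9 CPM in scrambled 1, 37.7 in scrambled 2, 22.5 in sh1137 and 27.9 in sh830, with a log2 fold change of -0.32 ± 0.11 (adjusted p = 0.11). For both Orc genes the groups overlapped, in opposite ways: scrambled 1 was the highest library for Orc1 and scrambled 2 for Orc6.

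Cdc45 and the GINS complex turn the loaded ring into the active CMG helicase, and 2 of these 4 genes fell. Cdc45 (chr16:18780540-18812065) had 39.1 CPM in scrambled 1, 47.3 in scrambled 2, 28.9 in sh1137 and 34.9 in sh830. It fell by 0.44 ± 0.093 (adjusted p = 0.036), with no overlap between groups. Gins1 had 19.1 CPM in scrambled 1, 29.6 in scrambled 2, 14.5 in sh1137 and 19.3 in sh830. It fell by 0.51 ± 0.12 (adjusted p = 0.047), the largest adjusted p among the members that fell, and sh830 lay just above scrambled 1. Gins2, whose exons overlap Gse1 on the opposite strand, had 21.9 CPM in scrambled 1, 36.6 in scrambled 2, 17.3 in sh1137 and 27.3 in sh830, with a log2 fold change of -0.38 ± 0.10 (adjusted p = 0.063). Gins3, the lowest member of this role, had 11.1 CPM in scrambled 1, 11.5 in scrambled 2, 9.45 in sh1137 and 11.7 in sh830, with a log2 fold change of -0.10 ± 0.16 (adjusted p = 0.70). Its sh830 value was above both scrambled values. Whether the counting used strand is not stated, so reads of Gins2 and Gse1 cannot be told apart. The same holds for Rfc4 with Eif4a2, Pold2 with Aebp1, Lig1 with Zswim9, Tk1 with Afmid and Ccne2 with Ints8.

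The sliding clamp and its loader gave 2 falls among 6 genes, both in small RFC subunits. Rfc4 (chr16:23114021-23127803) had 18.6 CPM in scrambled 1, 29.6 in scrambled 2, 10.2 in sh1137 and 17.7 in sh830. It fell by 0.80 ± 0.12 (adjusted p = 0.018), the second largest change among the 44 genes, and its groups did not overlap. Rfc5 had 46.02 CPM in scrambled 1, 74.8 in scrambled 2, 35.7 in sh1137 and 51.7 in sh830. It fell by 0.45 ± 0.095 (adjusted p = 0.035), although sh830 was above scrambled 1. Pcna (chr2:132075022-132078916), the clamp that tethers the polymerases, had more counts than any other member, at 399.7 CPM in scrambled 1, 752 in scrambled 2, 321 in sh1137 and 579 in sh830. The libraries scrambled 2 and sh830 were both above scrambled 1 and sh1137, so the groups overlapped, and the log2 fold change of -0.35 ± 0.093 (adjusted p = 0.061) did not pass. The RefSeq table names 2 pseudogenes of Pcna, and how the counting treated reads shared with them is not stated. Rfc1, the large subunit, had 150.1 CPM in scrambled 1, 157 in scrambled 2, 129.6 in sh1137 and 137 in sh830, with no overlap and a log2 fold change of -0.21 ± 0.082 (adjusted p = 0.14). Rfc2 had 53.4 CPM in scrambled 1, 93.7 in scrambled 2, 49.3 in sh1137 and 75.9 in sh830, with a log2 fold change of -0.21 ± 0.093 (adjusted p = 0.17). Rfc3 had 26.7 CPM in scrambled 1, 38.2 in scrambled 2, 23.9 in sh1137 and 34.8 in sh830, with a log2 fold change of -0.14 ± 0.098 (adjusted p = 0.35). For Rfc2 and Rfc3, as for Pcna, the low-intron libraries were the 2 highest. Per kilobase of exon, scrambled means ran from 11.1 CPM per kb for Rfc3 to 48.5 for Rfc2, a wider range than among the MCM genes (ratio 4.39), and Pcna stood at 457.

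None of the 3 RPA genes, whose proteins coat single-stranded DNA, passed the test, and each had overlapping groups. At an unadjusted p under 0.05 there was 1 of 3, where 4481 of all 13884 genes tested were. DESeq2 with the library term passed 0. Rpa1, the large DNA-binding subunit, had 172 CPM in scrambled 1, 229 in scrambled 2, 130.1 in sh1137 and 192 in sh830, with a log2 fold change of -0.33 ± 0.089 (adjusted p = 0.061). Rpa2 had 52.1 CPM in scrambled 1, 76.6 in scrambled 2, 44.6 in sh1137 and 74.6 in sh830, with a log2 fold change of -0.13 ± 0.094 (adjusted p = 0.38). Rpa3, the small subunit, had 9.61 CPM in scrambled 1, 16.1 in scrambled 2, 9.23 in sh1137 and 15.9 in sh830, with a log2 fold change of -0.038 ± 0.14 (adjusted p = 0.88). For Rpa2 and Rpa3 the libraries divided by intron share: scrambled 2 and sh830 were close together and well above scrambled 1 and sh1137.

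Of 7 genes for the replicative polymerases and primase, 4 fell and the median log2 fold change was -0.43. Pold1 (chr7:51788114-51804185), the catalytic subunit of the lagging-strand polymerase delta, had 81.02 CPM in scrambled 1, 74.8 in scrambled 2, 50.9 in sh1137 and 46.2 in sh830. It fell by 0.68 ± 0.085 (adjusted p = 0.013), and both hairpin values were well under both scrambled values. Pold2, the accessory subunit of the same polymerase, had 21.8 CPM in scrambled 1, 25.96 in scrambled 2, 13.3 in sh1137 and 17.3 in sh830, a fall of 0.65 ± 0.12 (adjusted p = 0.026), also with no overlap. Pole, the catalytic subunit of the leading-strand polymerase epsilon, had 157 CPM in scrambled 1, 119.8 in scrambled 2, 114 in sh1137 and 98.9 in sh830. Its groups did not overlap, and its log2 fold change of -0.37 ± 0.091 (adjusted p = 0.0503) missed the threshold narrowly. Pola1, the catalytic subunit of the polymerase that starts each strand, had 163 CPM in scrambled 1, 149 in scrambled 2, 130.3 in sh1137 and 129.6 in sh830. Its groups did not overlap either, and its log2 fold change was -0.26 ± 0.086 (adjusted p = 0.094). Pola2, the second subunit of that complex, had 82.5 CPM in scrambled 1, 71.2 in scrambled 2, 78.4 in sh1137 and 60.7 in sh830, with overlapping groups and a log2 fold change of -0.15 ± 0.089 (adjusted p = 0.28). Primase lays down the RNA primers. Its catalytic subunit Prim1 had 35.5 CPM in scrambled 1, 54.6 in scrambled 2, 25.99 in sh1137 and 41.1 in sh830, a fall of 0.43 ± 0.093 (adjusted p = 0.037), with sh830 above scrambled 1. Its large subunit Prim2 had 44.4 CPM in scrambled 1, 55.01 in scrambled 2, 34.3 in sh1137 and 36.6 in sh830, a fall of 0.48 ± 0.10 (adjusted p = 0.036), with no overlap. Within the polymerase alpha-primase complex, both primase genes thus fell and both polymerase genes did not pass, and the difference between them was not tested. Scrambled means of the 4 genes ran from 11.6 CPM per kb of exon for Pola2 to 29.3 for Prim1.

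Both enzymes that finish Okazaki fragments fell. Fen1, the flap nuclease that removes primers, had 121 CPM in scrambled 1, 172 in scrambled 2, 94.7 in sh1137 and 134 in sh830, a fall of 0.36 ± 0.082 (adjusted p = 0.042), with sh830 above scrambled 1. Lig1 (chr7:13862662-13896776), the ligase that seals the fragments, had 187 CPM in scrambled 1, 143 in scrambled 2, 129 in sh1137 and 112 in sh830, a fall of 0.45 ± 0.092 (adjusted p = 0.033), with no overlap. The order within groups was opposite for the 2 genes: scrambled 2 was the highest library for Fen1 and scrambled 1 for Lig1.

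Genes of deoxynucleotide synthesis had the lowest median log2 fold change of the 9 roles, -0.53, and 3 of 4 fell. Rrm2 (chr12:25393119-25399011), the regulatory small subunit of ribonucleotide reductase, had 128 CPM in scrambled 1, 163 in scrambled 2, 68.3 in sh1137 and 98.6 in sh830. It fell by 0.81 ± 0.090 (adjusted p = 0.010), which is the largest change among the 44 genes, and its groups were far apart. Rrm1, the large subunit of the same enzyme, had 283 CPM in scrambled 1, 353 in scrambled 2, 195 in sh1137 and 249 in sh830, a fall of 0.52 ± 0.086 (adjusted p = 0.021), with no overlap. Tk1, the thymidine kinase of cycling cells, had 69.4 CPM in scrambled 1, 106 in scrambled 2, 46.9 in sh1137 and 74.4 in sh830. It fell by 0.54 ± 0.083 (adjusted p = 0.019), although sh830 was above scrambled 1. Tyms, thymidylate synthase, had 60.1 CPM in scrambled 1, 57.04 in scrambled 2, 50.5 in sh1137 and 42.9 in sh830. Its groups did not overlap, and its log2 fold change was -0.33 ± 0.094 (adjusted p = 0.069). The RefSeq table names 1 pseudogene of Tyms.

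Among 6 regulators of G1/S and S-phase factors, 1 fell. Uhrf1 (chr17:56442760-56462909), the hemimethylated-DNA reader that brings the maintenance methyltransferase to new DNA, had 289 CPM in scrambled 1, 273 in scrambled 2, 159 in sh1137 and 191 in sh830. It fell by 0.69 ± 0.11 (adjusted p = 0.021), with both hairpin values far below both scrambled values. The E2F activators did not pass. E2f1 had 48.9 CPM in scrambled 1, 52.8 in scrambled 2, 40.7 in sh1137 and 42.3 in sh830, with no overlap and a log2 fold change of -0.29 ± 0.090 (adjusted p = 0.082). E2f2 had 53.8 CPM in scrambled 1, 50.9 in scrambled 2, 53.7 in sh1137 and 51.8 in sh830, with a log2 fold change of 0.013 ± 0.088 (adjusted p = 0.93). Relative to their level, the 4 values of E2f2 lay closer together than those of any other member. The E-type cyclins, which activate Cdk2 at the G1/S step, had overlapping groups: Ccne1 had 29.00 CPM in scrambled 1, 34.02 in scrambled 2, 24.95 in sh1137 and 29.7 in sh830, and Ccne2 had 20.2 CPM in scrambled 1, 27.3 in scrambled 2, 17.2 in sh1137 and 24.95 in sh830. Their log2 fold changes were -0.21 ± 0.099 (adjusted p = 0.21) and -0.18 ± 0.11 (adjusted p = 0.30). Slbp, the stem-loop binding protein of replication-dependent histone mRNAs, had 76.5 CPM in scrambled 1, 98.01 in scrambled 2, 66.2 in sh1137 and 86.3 in sh830, with overlapping groups and a log2 fold change of -0.20 ± 0.082 (adjusted p = 0.16).

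Introns, whose reads stand for RNA not yet spliced, were also mostly lower, with fewer calls. Of 43 members tested, 6 fell, 0 rose and 37 did not pass in edgeR's quasi-likelihood test with the library term, where 3.93% of the 12405 genes tested fell and 5.97% rose. The median log2 fold change was -0.33, against -0.011 over all genes, and 41 of 43 members were below 0. With the group term alone 0 members and 0% of genes passed. In that fit 2 members and 708 of the 12405 genes had an unadjusted p under 0.05. With the same test, 15 members were lower with DESeq2 size factors and 20 without a filter on low counts, where 915 and 1133 genes were. DESeq2 with the library term, which is another test as well as another scaling, passed 1 member and 315 genes as lower. Tk1 had no intron count in any library and was not tested. Both hairpin libraries were below both scrambled ones for 21 members, against 14.1% of genes.

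Over introns, Mcm2 had 36.2 CPM in scrambled 1, 35.8 in scrambled 2, 24.6 in sh1137 and 24.5 in sh830, and fell by 0.55 ± 0.12 (adjusted p = 0.036). The 2 libraries of each group were nearly equal. Pold1 had 33.5 CPM in scrambled 1, 28.4 in scrambled 2, 21.4 in sh1137 and 17.6 in sh830, a fall of 0.67 ± 0.13 (adjusted p = 0.027). Lig1 had 109.8 CPM in scrambled 1, 76.5 in scrambled 2, 72.3 in sh1137 and 58.8 in sh830, a fall of 0.50 ± 0.10 (adjusted p = 0.033). The groups of both genes did not overlap. Uhrf1 had 121 CPM in scrambled 1, 68.3 in scrambled 2, 71.8 in sh1137 and 53.5 in sh830, a fall of 0.57 ± 0.12 (adjusted p = 0.037), and sh1137 was above scrambled 2. These 4 genes fell over exons and introns alike. Mcm6 and Pole fell over introns and did not pass over exons. Mcm6 introns had 89.1 CPM in scrambled 1, 73.9 in scrambled 2, 69.3 in sh1137 and 51.3 in sh830, a fall of 0.44 ± 0.099 (adjusted p = 0.043). Pole introns had 90.3 CPM in scrambled 1, 67.6 in scrambled 2, 70.6 in sh1137 and 43.4 in sh830, a fall of 0.49 ± 0.11 (adjusted p = 0.043). Positive intron values, neither of which passed, were those of Rfc2, at 0.047, and Rpa3, at 0.31. Rpa3 introns had 5.31 CPM in scrambled 1, 8.93 in scrambled 2, 5.72 in sh1137 and 12.97 in sh830, so the 2 low-intron libraries were the highest, as over exons. The genes with the most intron sequence, Pola1 (318728 bases) and Prim2 (212416 bases), also had the highest intron CPM. Pola1 introns had 802 CPM in scrambled 1, 392 in scrambled 2, 689 in sh1137 and 315 in sh830, and Prim2 introns had 533 CPM in scrambled 1, 241 in scrambled 2, 488 in sh1137 and 213 in sh830. Both were split by library type, and their log2 fold changes of -0.27 ± 0.094 (adjusted p = 0.13) and -0.15 ± 0.091 (adjusted p = 0.33) did not pass.

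Intron and exon changes were next compared within each gene. The interaction of group and interval type passed for 0 of 43 members, where it passed for 3.73% of 11772 genes. That fit let the library term differ between exons and introns, and without this the interaction passed for 0 members and 0 genes. With it, the median of the intron minus the exon log2 fold change was 0.067. The smallest adjusted p was that of Prim2 (0.084), whose exon value of -0.48 and intron value of -0.15 differed by 0.32 ± 0.11 in that fit. Gins3 differed in the other direction, by -0.49 ± 0.21 (adjusted p = 0.22), with an intron value of -0.60. Across the 43 members the exon and intron log2 fold changes had a Pearson correlation of 0.50 and a Spearman correlation of 0.46, against 0.78 and 0.71 across the 11772 genes tested in both. These values are a description, since both changes come from the same 4 libraries. Exon log2 fold changes ran from -0.81 to 0.013 for the members and from -4.41 to 9.62 for all genes tested over exons. The correlations were thus taken over unlike ranges, and the difference between them was not tested.

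**Figure D3:**
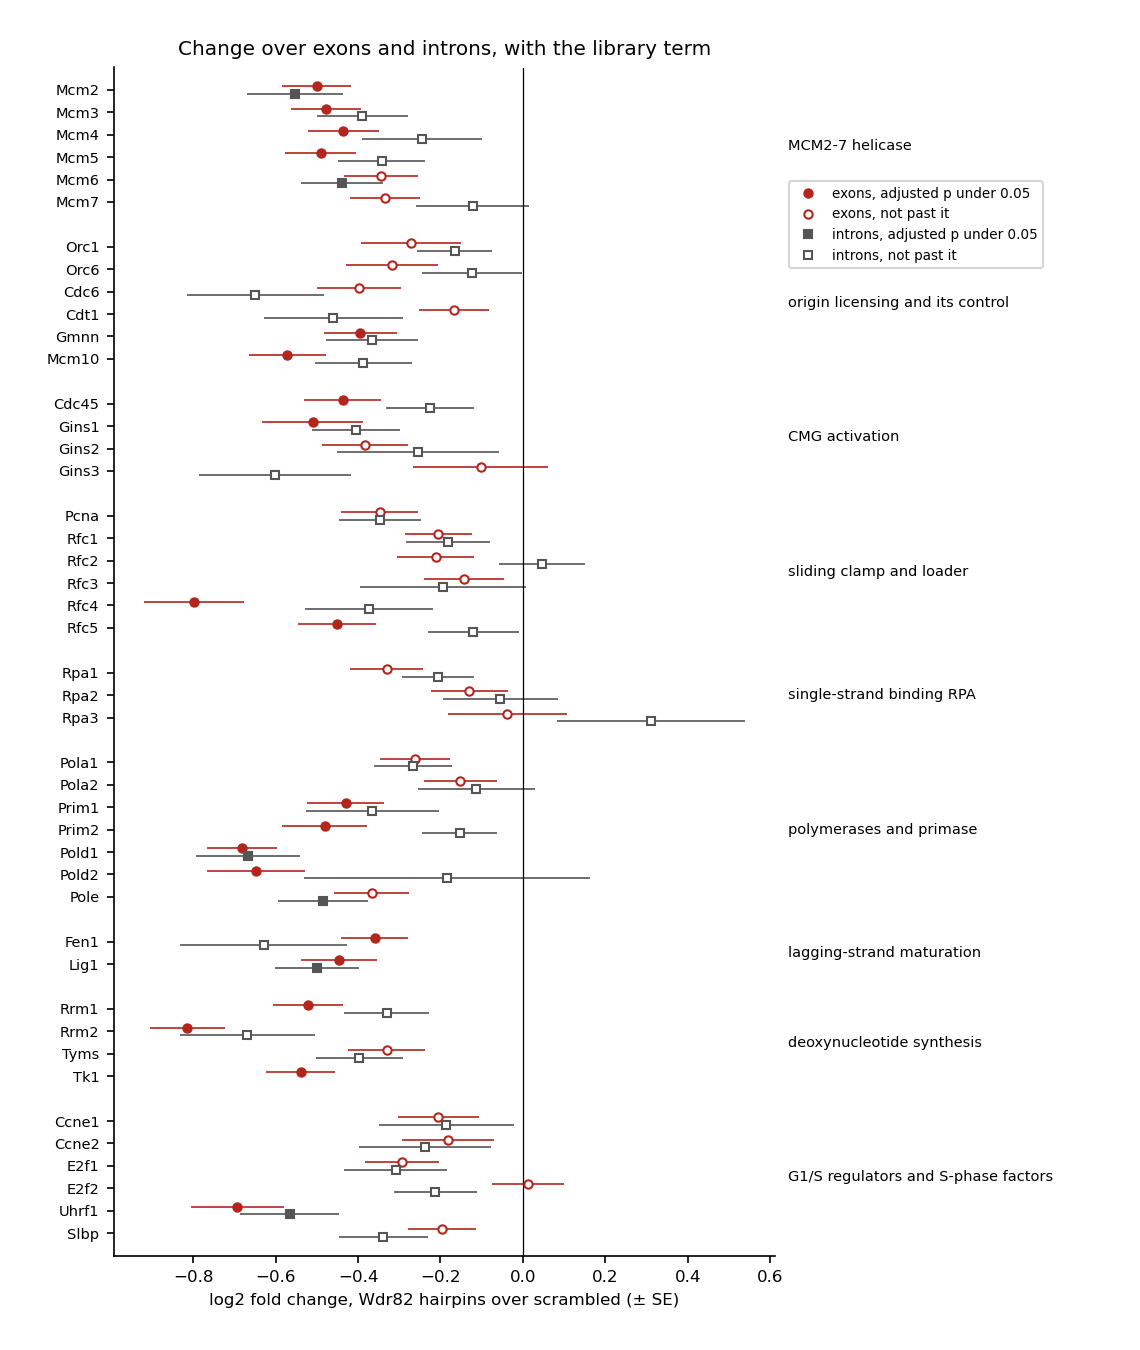
Log2 fold change of each gene, Wdr82 hairpins over scrambled, in the fits with the library term (x axis, log2; bars are ± 1 SE of the fit; red circles are exons, grey squares introns, filled where the adjusted p is under 0.05). All marks but E2f2 over exons and Rfc2 and Rpa3 over introns lie left of 0, and the lowest exon values are those of Rrm2, Rfc4, Uhrf1, Pold1 and Pold2.

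Within each intron-share class the comparison is of 1 library with 1 library, without a test. With sh1137, 44 of 44 members were below scrambled 1 over exons, where 54.7% of all genes were, and the median difference was -0.37 log2 CPM. With sh830, 42 of 44 were below scrambled 2, where 49.9% of all genes were, and the median difference was -0.38. Gins3 and E2f2 were the exceptions, at 0.024 and 0.026. Rrm2 differed by -0.90 with sh1137 and -0.73 with sh830, Rfc4 by -0.86 and -0.74, and Pold1 by -0.67 and -0.69. Uhrf1 was less alike in the 2 pairs, at -0.87 and -0.52. The difference between library types was nearly as large as that between hairpin and scrambled libraries. Scrambled 1 was below scrambled 2 for 32 of 44 members, with a median of -0.31, while over all genes the median was 0.0034 and 49.7% were lower. The median of sh1137 minus sh830 was -0.33.

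**Figure D4:**
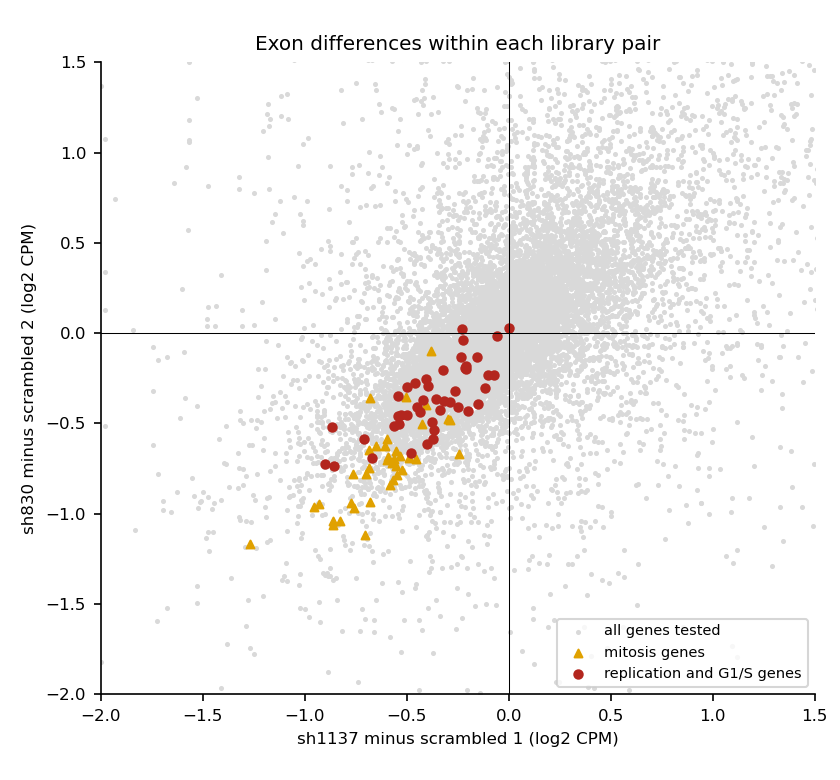
Exon differences within each pair of libraries (x axis, sh1137 minus scrambled 1; y axis, sh830 minus scrambled 2; both log2 CPM; each mark is 1 gene, red for the 44 members, yellow triangles for 38 mitosis genes, grey for all genes tested, of which 1062 lie outside the axes). Of the 44 members 42 lie below 0 on both axes, and Gins3 and E2f2 lie just above 0 on the y axis.

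The other genes of the pathway were 62 genes listed by role. Of these 17 fell, 1 rose and 44 did not pass, with a median log2 fold change of -0.24. Over all genes tested over exons, 7.79% fell and 6.06% rose, so the 1 rise is below that share. Fork protection and checkpoint genes gave 4 falls among 6: Timeless, Tipin, Clspn and Atr. Atr, the kinase that senses stalled forks, had 65.9 CPM in scrambled 1, 64.7 in scrambled 2, 33.9 in sh1137 and 39.3 in sh830, a fall of 0.84 ± 0.10 (adjusted p = 0.013). Origin recognition and firing gave 2 among 12, both parts of the kinase that fires origins, Dbf4 and Cdc7. Polymerase and RNase H subunits and helper nucleases gave 2 among 7, Pole2 and Dna2, and chromatin assembly and DNA methylation gave 2 among 4, Chaf1a and Asf1b. In deoxynucleotide synthesis 1 of 6 fell: Dck, which salvages deoxycytidine, had 125 CPM in scrambled 1, 161 in scrambled 2, 73.7 in sh1137 and 107 in sh830, a fall of 0.68 ± 0.090 (adjusted p = 0.014). Of 11 E2F and RB family genes Tfdp1 alone fell, which is near the share over all genes, and the median was -0.040. Among 16 G1 cyclins, kinases and inhibitors 5 fell and 1 rose. Ccna2, the cyclin of S phase and of entry to mitosis, had 168 CPM in scrambled 1, 272 in scrambled 2, 101 in sh1137 and 159 in sh830, a fall of 0.75 ± 0.083 (adjusted p = 0.010). Cdk4, Cks1b and Myc fell too, and so did Cdkn2c, an inhibitor of Cdk4 and Cdk6. Cdkn1b, the p27 inhibitor of cyclin-dependent kinases, had 28.7 CPM in scrambled 1, 29.7 in scrambled 2, 36.96 in sh1137 and 43.8 in sh830, a rise of 0.46 ± 0.10 (adjusted p = 0.040). For each of the 4 genes given with values, the groups did not overlap. Over introns 11 of 60 fell and 1 rose, Rb1, where 3.93% of all genes tested fell and 5.97% rose.

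The 38 genes of mitosis, which act after S phase, gave 35 falls and 0 rises over exons. Their median log2 fold change was -0.65. Over introns there were 23 falls among 37. Of all genes tested, 7.79% fell over exons and 3.93% over introns. Ube2c, the ubiquitin-conjugating enzyme of the anaphase-promoting complex, had 55.95 CPM in scrambled 1, 78.1 in scrambled 2, 23.2 in sh1137 and 34.8 in sh830, a fall of 1.22 ± 0.093 (adjusted p = 0.0054). Cdc20, that complex's activator, had 75.7 CPM in scrambled 1, 98.9 in scrambled 2, 38.99 in sh1137 and 50.6 in sh830, a fall of 0.96 ± 0.084 (adjusted p = 0.0064). Ccnb2, a B-type cyclin, had 75.05 CPM in scrambled 1, 133 in scrambled 2, 41.3 in sh1137 and 64.8 in sh830, a fall of 0.95 ± 0.092 (adjusted p = 0.0075). The groups of these 3 genes did not overlap. The lowest replication member, Rrm2 at -0.81, was above all 3. With the group term alone 0 mitosis genes and 0 other pathway genes passed. The difference between the mitosis genes and the 44 members was not tested.

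**Figure D5:**
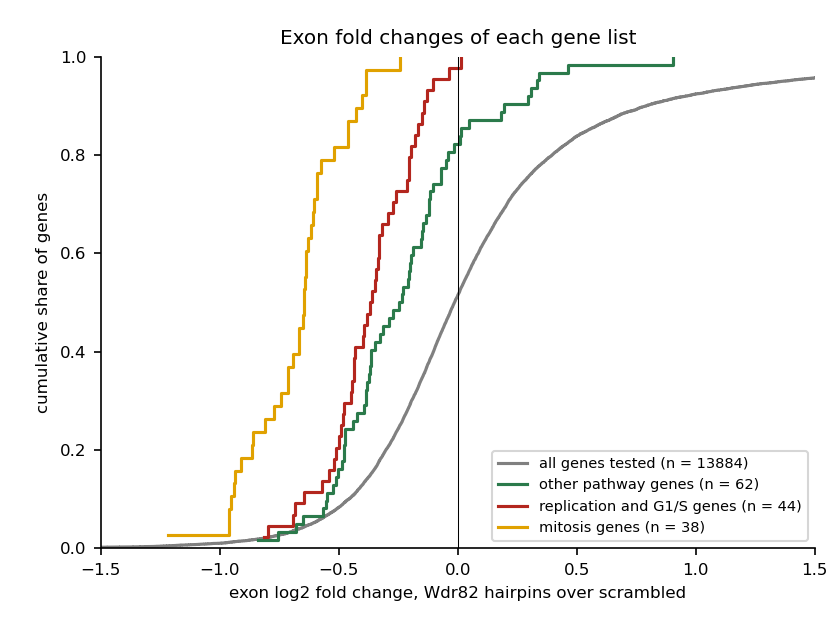
Cumulative share of genes (y axis, 0 to 1) at or below each exon log2 fold change, Wdr82 hairpins over scrambled (x axis), for the 44 members (red), 62 other pathway genes (green), 38 mitosis genes (yellow) and all 13884 genes tested (grey, drawn within the axes). The medians are -0.36, -0.24, -0.65 and -0.014, and the red curve reaches its last gene, E2f2, just right of 0.

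The deposited annotation also holds non-gene regions, which the authors called from a hairpin against vector comparison, so that their direction is not independent evidence. Of 1070 tested, 584 rose and 0 fell. Within 20 kb of the 44 members there were 7. A region starts upstream of Cdt1 and overlaps the gene's first 85 bases (mm9, chr8:125079500-125091999, against chr8:125091915-125097030 for the gene). It had 311 counts in scrambled 1, 382 in scrambled 2, 1609 in sh1137 and 812 in sh830, a rise of 1.75 ± 0.36 (adjusted p = 0.033), while Cdt1 exons had a log2 fold change of -0.17 and did not pass. How reads in the shared bases were counted is not stated. Regions that rose also lay by Hmox1, 16428 bases from Mcm5, by Lat2, 16302 bases from Rfc2, and by Afmid, 14172 bases from Tk1. The 3 others, near Gmnn, Mcm10 and Tk1, did not pass. No region was called within 20 kb of the other 38 members.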

How the data were processed

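The values are raw counts of reads for each gene, 1 table for exons and another for introns, as deposited by the authors with no scaling. Other data used were interval coordinates, in mm9 per the submitters' processing notes, from the annotation the authors deposited. The tools listed are SICER, TopHat 1.3.1, Cuffdiff 2.1.1 and Cufflinks 2.1.1, per the submitters' processing notes. The tool that counted reads and its use of strand are not given in the sources used here. The other 10 samples of the series were not analysed here.

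Genes and non-gene regions shared 1 exon fit, made with edgeR 4.0.16 under R 4.3.3: filterByExpr, TMM factors from the genes kept, a group term and a term for the intron-share split, glmQLFit and glmQLFTest, with Benjamini-Hochberg adjustment over all features and a threshold of 0.05. This fit leaves 1 residual degree of freedom and rests on moderation of the spread across genes. The labels give no batch for this split, and the term is a choice made with earlier results known. Introns were fitted alike with their own factors, and intron against exon change as an interaction. Per-library values are TMM-scaled CPM, divided by exon length where levels of genes are compared. The fit was tested on simulated data, where its direction and size were recovered and its false calls exceeded the share that the threshold allows. Every call of this fit is thus less firm than its adjusted p states, and those near the threshold are the least firm. Alternatives were the group term alone, the crossed split, DESeq2 1.42.0, other scaling and filters, and leaving out each library; TMM factors taken before the filter were added after seeing the data.

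The members and gene lists were chosen with earlier results of these data known. The naming rule took per-library values for the 2 members of each role with the highest exon CPM, members with overlapping groups or a positive change, the extremes, and the 3 smallest p in each direction of the other lists; further members were added so that each is accounted for. Exon depth was 34787556 to 43372731 counts per library, and the members all passed the filter over exons. Counting error is larger for members with few counts. Gins3 had 354 to 495 counts per library and Rpa3 had 346 to 671, with SEs of 0.16 and 0.14.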

Additional observations from a re-analysis of the deposited data

How the results depend on the processing

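The calls depended on the library term. Members lower over exons numbered 20 as reported, 19 in DESeq2 with the library term, 17 with DESeq2 size factors in edgeR, 25 with no filter, 20 with TMM factors before the filter, and 0 with the group term alone, with the crossed split, and in DESeq2 with the group term alone. All genes lower over exons numbered 1081 as reported, 984 in DESeq2 with the library term, 855 with DESeq2 size factors, 1254 with no filter and 1013 with TMM factors before the filter. Leaving out any 1 library also gave 0 members (0 to 0), in fits that have no library term and assume the lone library of a group to vary like the other group. As the group term alone already passed 0 with all 4 libraries, those counts say nothing on stability. Members higher numbered 0 in each of these. Over introns, 6 members were lower as reported, 1 in DESeq2 with the library term and 15 with DESeq2 size factors. There were 20 with no filter and 13 with TMM factors before the filter. With the group term alone, the crossed split and DESeq2 with the group term alone there were 0. The share of all genes lower over introns is not given for TMM factors before the filter. The crossed split and DESeq2 with the group term alone also lack it, over exons too. Those member counts thus cannot be read as high or low. The cause was not tested. No paired analysis was possible because the labels give the Wdr82 hairpin libraries no replicate numbers. The library term, set by measured intron share, places scrambled 1 with sh1137 and scrambled 2 with sh830 and so acts as a block in the fit as reported.

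The exon median of -0.36 became -0.38 and -0.38 in DESeq2 with and without the library term, -0.37 with no filter, -0.37 with TMM factors before the filter, -0.38 for sh830 against scrambled 2 alone, and -0.54 to -0.19 without 1 library. The intron median of -0.33 became -0.31 with the group term alone, -0.36 in DESeq2 with the library term, -0.35 with DESeq2 size factors, -0.35 with no filter, -0.35 with TMM factors before the filter, -0.32 and -0.34 in the pairs with sh1137 and sh830, and -0.34 to -0.29 without 1 library.

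None of the 20 members that fell over exons changed sign in any alternative run. Among the others E2f2 turned to -0.0015 and -0.0013 in DESeq2 with the library and with the group term alone. Without 1 library, exon log2 fold changes that changed sign ran from -0.52 to 0.15 for Cdt1, -0.75 to 0.051 for Gins2, -0.84 to 0.20 for Pcna, -0.59 to 0.25 for Rfc2, -0.43 to 0.17 for Rfc3, -0.52 to 0.22 for Rpa2, -0.47 to 0.41 for Rpa3, -0.46 to 0.087 for Ccne2, -0.39 to 0.022 for Slbp, -0.25 to 0.045 for Gins3, -0.022 to 0.051 for E2f2, -0.64 to 0.069 for Orc1 and -0.35 to 0.042 for Pola2. Over introns they ran from -0.064 to 0.15 for Rfc2, -0.92 to 0.37 for Pola1, -0.86 to 0.55 for Prim2 and -0.30 to 0.90 for Rpa3. The cause was not tested. Over exons these signs changed without scrambled 2 or without sh1137, except for Cdt1 (without scrambled 1 and without sh830) and for Orc1 and Pola2 (without sh830). Depth was lowest for the introns of Pold2, at 2.32 to 4.29 CPM, with an SE of 0.35. Genes lower over introns numbered 488 in all as reported, 915 with DESeq2 size factors, 1133 with no filter and 315 in DESeq2 with the library term.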
